A study of Homo sapiens with 2 samples.

Results

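The genes described here make the machinery that licenses, fires and copies origins of DNA replication: 52 named genes, from the origin recognition complex to the replicative polymerases and the proteins that guard the fork. Members were found by symbol in the deposited gene table, where all 52 had exactly 1 row among 58302 genes. They were measured by RNA-seq in 2 libraries of HL60-EIF2S3 cells, 1 per condition. HL60, a widely used human acute myeloid leukemia line, is the parent, and HL60-EIF2S3 cells carry EIF2S3, which encodes the gamma chain of eIF2, the factor that brings the initiator tRNA to the ribosome, on a retroviral Tet-Off construct. In a Tet-Off system the transgene is on while doxycycline is absent, so the library labelled DOX(-) comes from untreated cells with the transgene meant to be on, and the library labelled DOX(+) from doxycycline-treated cells with it meant to be off. Both carry the construct, the sources used here give no dose or time of doxycycline, and an effect of doxycycline itself cannot be told apart from an effect of the transgene. The series title ties EIF2S3 to proliferation and the cell cycle, which is the question these genes bear on.

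Origins are prepared in G1, when the origin recognition complex (ORC), CDC6 and CDT1 load rings of MCM2 to MCM7 onto DNA. This step is called licensing, and geminin blocks it by binding CDT1. In S phase the kinase CDC7 with DBF4, together with cyclin-dependent kinases, turns the loaded rings into active helicases by adding CDC45 and the GINS complex. The polymerases alpha, delta and epsilon then copy the strands. Delta and epsilon are held by the sliding clamp PCNA, which replication factor C (RFC) loads, while RPA coats single strands. In dividing cells many of these genes are transcribed under the E2F family around the G1/S transition, so their messages are often read as a sign of how many cells are cycling.

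Depth came to 16577670 fragments for DOX(-) and 18521077 for DOX(+), recovered from the steps of the FPKM values (fragments per kilobase of transcript, scaled to the library's total). EIF2S3 stood at 133 FPKM in DOX(-) against 126 in DOX(+), which gives a ratio of 1.05 (counting interval 0.927 to 1.196), so the labels' difference in EIF2S3 was not seen, and the conditions are named throughout as the libraries labelled DOX(-) and DOX(+). Of 6 promyelocyte markers, 5 reached 1 FPKM, with sums of 1380 and 1107 FPKM. MPO, a defining marker of the promyelocyte, was near 0 (0.274 and 0.469 FPKM). Markers of T cells (4 genes) and epithelium (4 genes) were all listed at 0, and those of fibroblasts and monocytes summed to under 1 FPKM. Among B cell markers CD79A (1.66 and 0.709 FPKM) and among neutrophil markers CXCR2 (4.49 and 5.00 FPKM) reached 1 FPKM. Genes of the mitochondrial genome made up 22.5% of the summed FPKM in DOX(-) and 27.7% in DOX(+). FPKM is scaled to each library's fragments, so such a gap bears on every ratio below. The shift given with the scalings was taken from summed FPKM and not from fragments. With 1 library for each condition there is no spread between cultures and no p-value. Fewer cells of a kind and less message in each cell cannot be told apart in such bulk RNA. A difference is described by its size and by a counting interval, the exact conditional interval at 95% of the ratio of fragments, which covers counting error only.

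Messages of the replication machinery lay close together in the 2 libraries. Counted on log2(FPKM + 1), where the pseudocount of 1 FPKM shrinks the differences of low genes, 1 of 51 tested members was at least 1.5-fold higher in DOX(-) (CDT1) and 0 were at least 1.5-fold lower. Over all 11525 tested genes, which had to reach 1 FPKM in at least 1 library, 3.11% were that much higher and 4.06% that much lower, and among protein-coding genes at 5 FPKM or more 5.42% passed in either direction. By a second rule of size, the higher level at least 25% above the lower on the same scale, 3 members passed (5.88%), namely CDT1 and ORC2 on the higher side and CLSPN on the lower, where 22.9% of all tested genes and 19.6% of protein-coding genes at 5 FPKM or more passed. The interquartile range of the members' log2 ratios was 0.21, against 0.34 over all tested genes and 0.32 over the protein-coding genes at 5 FPKM or more. POLD4 was the only member under 1 FPKM in both libraries and was not tested.

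**Figure D1:**
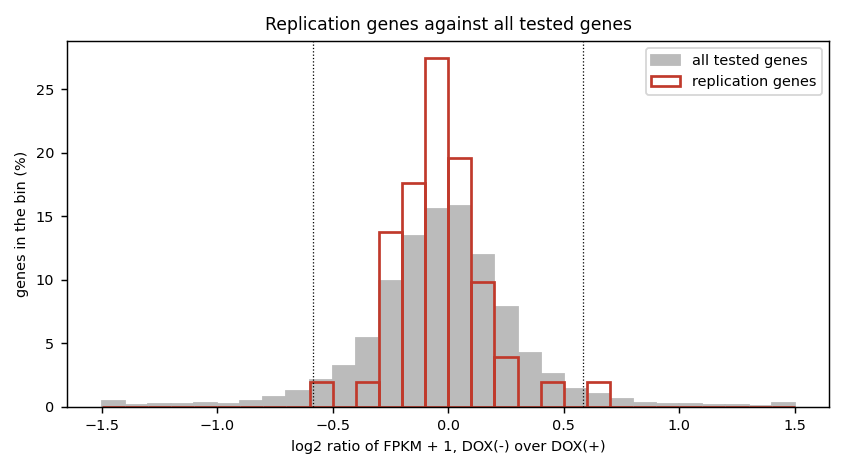
Share of genes (vertical axis, %) in bins of the log2 ratio of FPKM + 1, DOX(-) over DOX(+) (horizontal axis), for all 11525 tested genes (grey) and the 51 tested replication genes (red outline). Dotted lines mark 1.5-fold, and the outermost bins also hold the values beyond them. The replication genes crowd near 0, with CDT1 past the line on the right and CLSPN just inside it on the left.

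The members had no clear common direction. Below 0 stood 32 of the 51 tested members (62.7%) and above it 19, a share near the 53.4% below 0 among all tested genes. Their median log2 ratio was -0.05, beside -0.02 over all tested genes, and the quartiles of -0.14 and 0.07 lay on either side of 0. Summed over the 52 members the level was 1512 FPKM in DOX(-) against 1558 in DOX(+), or 0.536% and 0.542% of each library's total. The ratio of these sums was 0.970 (approximate counting interval 0.949 to 0.993), which excluded equal levels, beside 0.980 for the sums over all tested genes. Median-of-ratios and trimmed-mean scaling multiply DOX(-) by 1.017 and 1.02, which takes the upper bound past 1, so that exclusion depends on the scaling. PCNA, the highest member (287 and 316 FPKM), had the largest gap in FPKM of any member and made up most of the gap between the sums. The order of the members by level was nearly the same in both libraries (Spearman rho 0.990 over 52 genes, a description of 2 libraries that share their gene models), and no member moved by more than 8 places. Scaling moves the count of members below 0: it was 29 under median-of-ratios and trimmed-mean scaling, and 38 when the libraries were scaled to their FPKM without the mitochondrial genome, a shift of -0.07 in log2. Under that last scaling the median over all tested genes also moved, from -0.02 to -0.08. The share of all tested genes below 0 was not taken under these scalings, so 38 cannot be set against 53.4%.

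The counting interval of the ratio excluded equal levels for 1 member on the higher side (CDT1) and 5 on the lower side (ORC1, PCNA, POLE3, FEN1 and CLSPN). The same held for 7.6% and 8.52% of tested genes with an annotated length. The upper bounds for POLE3 (0.995) and FEN1 (0.996) lay just under 1. Median-of-ratios and trimmed-mean scaling would take both bounds past 1, so the count on the lower side depends on the scaling. These intervals used the shortest annotated transcript, which gives the fewest fragments. With the longest, 7 members were higher and 16 lower, since each member has between 2 and 25 annotated transcripts and the table does not say how its FPKM was divided among them. No share over all tested genes was taken with the longest transcript, so these counts cannot be set against 7.6% and 8.52%. For the members that pass only with the longest transcript, whether the depth can show the difference depends on the transcript assumed. On the higher side these were MCM2, ORC2, GMNN, POLA2, POLD2 and TIMELESS. Those on the lower side were MCM4, MCM5, MCM10, ORC5, CDC6, GINS4, RFC1, RFC3, POLD1, TIPIN and DBF4. Single intervals below are on the shortest transcript unless the longest is named.

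**Figure D2:**
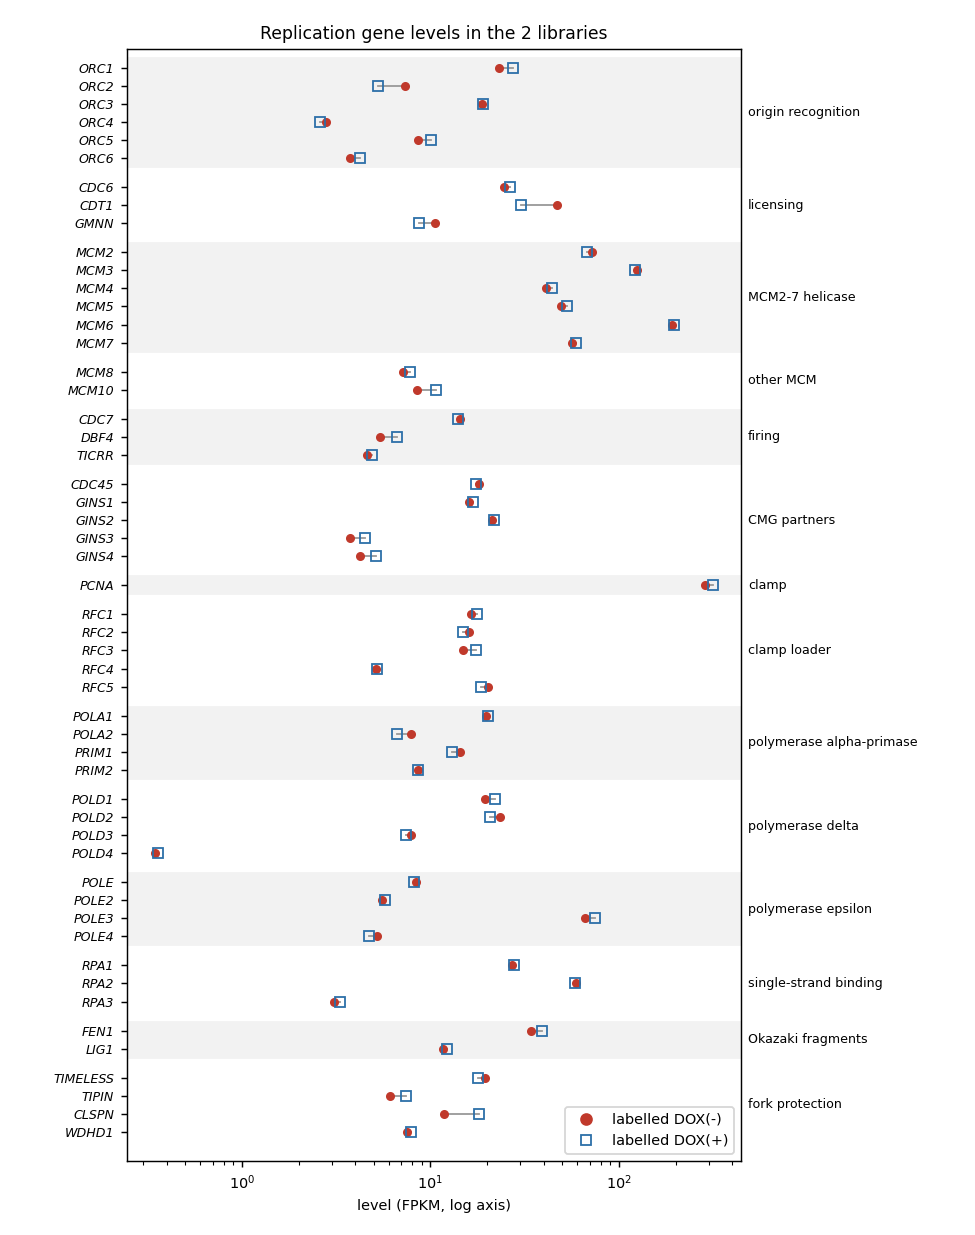
Level of each replication gene in FPKM (horizontal log axis) in the library labelled DOX(-) (filled red circles) and the one labelled DOX(+) (open blue squares), grouped by role. Paired symbols mostly overlap, PCNA is highest and POLD4 lowest, and the longest connecting lines belong to CDT1, CLSPN and ORC2.

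**Figure D3:**
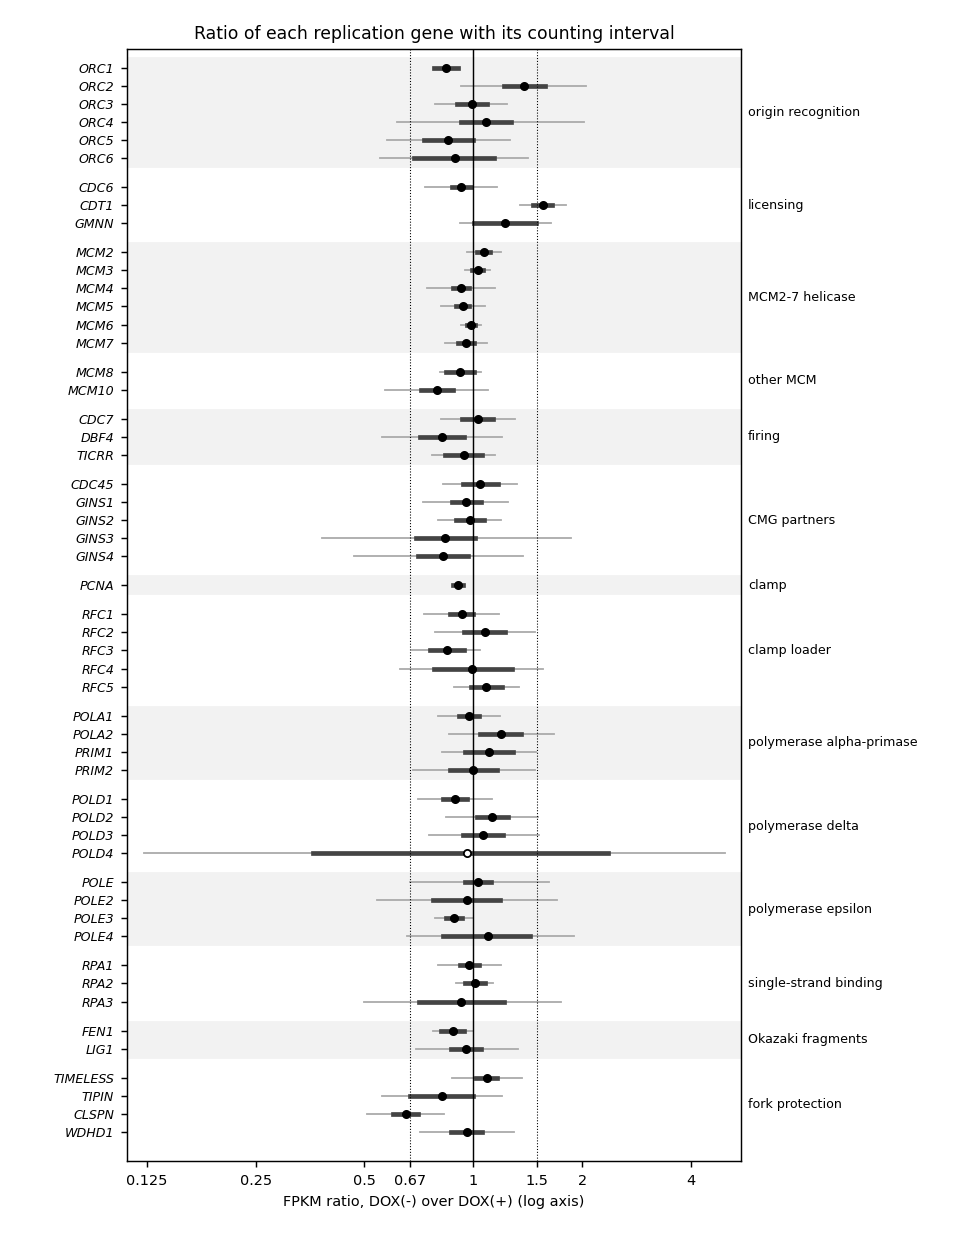
Ratio of FPKM, DOX(-) over DOX(+), for each replication gene (horizontal log axis), with counting intervals on the shortest (thin grey) and longest (thick dark) annotated transcript. Dotted lines mark 1.5-fold in each direction, and the open circle is POLD4, which was not tested. CDT1 lies to the right of 1 and CLSPN to the left with both of their intervals clear of it.

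A feature on which the members can be set beside other genes, and which their choice did not use, is the sequence before their start sites. RefSeq promoter windows (GRCh38.p14, 250 bases before to 50 after the gene start) were available for 46 members, in 61 windows. The letters searched on both strands were TTTCGCGC, TTTGGCGC, TTTCCCGC and TTTGCCGC for the E2F type and CCAAT for the NF-Y type. An E2F-type match was found in 37.7% of the members' windows, against 3.31% of all 35116 windows. By gene, it was found in 23 of the 46 members (50%), against 3.99% of 27305 genes. CCAAT was found in 55.7% of the members' windows and 34.6% of all, or by gene in 28 of the 46 members (60.9%) and 39.7% of genes. Neither type was found in 10 of the 46 members. For 2 further motifs, TTTGAA (the CHR type of late cell cycle genes) was in 3.28% of the members' windows and 15.2% of all, and the E-box CACGTG in 14.8% and 7.26%. The windows were not matched for base composition, and its part in these shares was not tested. E2F-type matches on opposite strands can overlap each other. A match is a string of letters, and whether any factor binds there was not measured.

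Windows are shown for the genes the text turns on, with E2F-type and CCAAT letters in capitals on either strand, read 5′ to 3′ along the gene. CDT1 and CLSPN are the members furthest apart in ratio, and each has an E2F-type match within 35 bases of its start. The CDT1 stretch lies at chr16:88803743-88803772 (+ strand), in an exon of a longer annotated CDT1 transcript, and the CLSPN stretch at chr1:35769976-35770038 (- strand), before the annotated gene. MCM6 (chr2:135876514-135876603, - strand) holds the run TTTGGCGCGAAA at a pair of places, and each counts as 2 overlapping matches, TTTGGCGC on the gene's strand and TTTCGCGC on the other. The other windows are MCM7 (chr7:100101398-100101424, - strand, in an exon of longer transcripts), PCNA (chr20:5126638-5126707, - strand, before the gene) and GMNN (chr6:24775308-24775372, + strand, intronic to longer transcripts).
CDT1: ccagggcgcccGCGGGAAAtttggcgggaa
CLSPN: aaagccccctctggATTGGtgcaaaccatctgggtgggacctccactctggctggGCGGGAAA
MCM6: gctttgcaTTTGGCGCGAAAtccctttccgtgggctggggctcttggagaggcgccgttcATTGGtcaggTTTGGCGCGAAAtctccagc
MCM7: gtcacgtggggggcgacgTTTCGCGCc
PCNA: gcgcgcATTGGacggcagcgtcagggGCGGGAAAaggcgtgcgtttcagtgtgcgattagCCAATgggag
GMNN: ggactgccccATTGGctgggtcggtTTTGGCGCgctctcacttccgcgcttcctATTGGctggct

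Members with and without the E2F-type letters had like levels and like ratios. The 23 with a match had median levels of 14.8 FPKM in DOX(-) against 17.5 in DOX(+), and the 22 tested members with a window but no match 15.2 and 13.99 FPKM. Their median log2 ratios were both -0.04, with ranges of -0.58 to 0.62 and -0.30 to 0.40. By role, all 3 licensing genes and all 4 MCM2 to MCM7 genes with a window had a match, as did 3 of 4 CMG partners (CDC45 and GINS). Only 1 of 6 ORC genes (ORC3), 1 of 5 RFC genes (RFC3) and 0 of 3 polymerase delta genes did. Only the exact letters listed above were searched, so a missing match does not show that a gene lacks an E2F site.

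**Figure D4:**
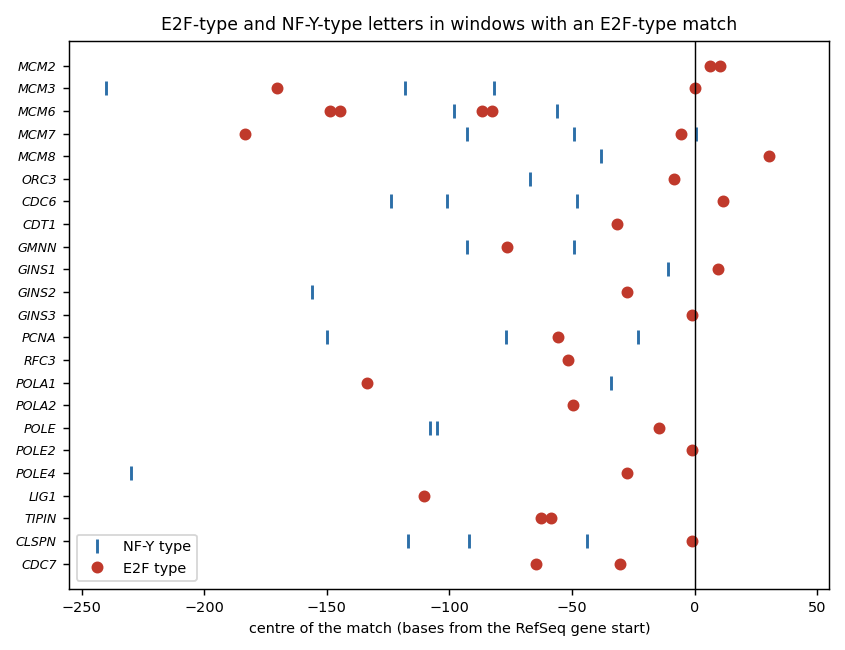
Position of E2F-type (red circles) and NF-Y-type (blue ticks) letters, in bases from the RefSeq gene start (horizontal axis), in the windows of the 23 members that hold an E2F-type match. Most E2F-type matches lie within 100 bases of the start, and MCM6 shows its paired matches.

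Of the origin recognition complex, whose 6 subunits mark origins, ORC1 stood highest and ORC4 lowest, in the same order in both libraries. ORC1, the subunit that human cells degrade in S phase, was at 23.0 FPKM in DOX(-) against 27.4 in DOX(+). It was lower in DOX(-), with a log2 ratio of -0.24 and a plain ratio of 0.841 (counting interval 0.779 to 0.907). Its 2 annotated transcripts are nearly equal in length, so this interval barely depends on the transcript chosen. ORC2 went the other way, at 7.32 FPKM in DOX(-) against 5.29 in DOX(+), a log2 ratio of 0.40 that was the second highest among the members. Its ratio of 1.38 had a counting interval of 0.922 to 2.05, which included equal levels, or 1.22 to 1.58 on the longest transcript. ORC3 (18.7 and 18.9 FPKM), ORC4 (2.80 and 2.59 FPKM), ORC5 (8.55 and 10.04 FPKM) and ORC6 (3.76 and 4.23 FPKM) had intervals that included equal levels, except that on the longest transcript the upper bound for ORC5 was 0.996. Summed, the 6 subunits stood at 64.2 and 68.4 FPKM, a ratio of 0.938 (0.848 to 1.04).

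Licensing factors showed the largest difference of any role group. CDT1, which brings the MCM rings to ORC (ENSG00000167513, chromosome 16, 88803213 to 88809258, GRCh38), was at 46.9 FPKM in DOX(-) against 30.2 in DOX(+). The ratio was 1.55 (counting interval 1.34 to 1.801) and the log2 ratio 0.62, just past 1.5-fold (0.585). It fell just short, at 0.55, when the libraries were scaled to FPKM without the mitochondrial genome. APRT, which lies 81 bases beyond the end of CDT1 on the other strand, was at 7.91 and 10.4 FPKM, lower in DOX(-). GMNN, which encodes geminin, the inhibitor of CDT1, was at 10.6 and 8.65 FPKM, also higher in DOX(-), but its ratio of 1.22 had an interval of 0.916 to 1.64, or 1.005 to 1.487 on the longest transcript. CDC6, the ATPase that works with ORC, was at 24.5 and 26.4 FPKM. CDT1 thus stood at 1.92 times CDC6 in DOX(-) and 1.14 times in DOX(+), and at 4.44 and 3.49 times GMNN. The 3 genes summed to 82.0 and 65.3 FPKM, a ratio of 1.26 (1.12 to 1.41), and CDT1 made up most of that gap, as GMNN and CDC6 differed in opposite directions.

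The 6 genes of the MCM2 to MCM7 helicase, by contrast, were level as a sum. They summed to 536 FPKM in DOX(-) against 541 in DOX(+), a ratio of 0.991 with an interval of 0.952 to 1.03. MCM6 was highest at 192 and 195 FPKM, followed by MCM3 at 125.1 and 121.8 FPKM. MCM2 stood at 71.9 and 67.3 FPKM, MCM7 at 56.5 and 59.3 FPKM, MCM5 at 49.4 and 52.9 FPKM, and MCM4 at 40.955 and 44.2 FPKM. The order was the same in both libraries. On the shortest transcript all 6 intervals included equal levels. On the longest, MCM2 was higher in DOX(-) (1.02 to 1.11), while MCM4 (0.881 to 0.973) and MCM5 (0.894 to 0.975) were lower. Although the proteins form a ring with 1 copy of each, the highest message exceeded the lowest 4.69-fold in DOX(-) and 4.41-fold in DOX(+) on this per-length scale.

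Both other MCM-named genes were lower in DOX(-), MCM10 (log2 ratio -0.30) by more than MCM8 (-0.11), and stood at low levels. MCM10, which helps the helicase start and is no part of the ring, was at 8.49 and 10.7 FPKM, a ratio of 0.792 with an interval of 0.569 to 1.10. MCM8, which acts in repair with MCM9, was at 7.16 and 7.78 FPKM. Neither interval excluded equal levels on the shortest transcript, while on the longest that of MCM10 did (0.716 to 0.878).

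Firing factors were low and similar. CDC7, the kinase that activates loaded MCM rings, was at 14.3 and 13.9 FPKM. DBF4, its activating subunit, was at 5.43 and 6.62 FPKM, a ratio of 0.819 (0.559 to 1.201, or 0.711 to 0.942 on the longest transcript). A processed pseudogene, DBF4P1, was listed at 4.88 and 6.36 FPKM, close to DBF4 itself, so reads may be divided between these copies and the DBF4 values are uncertain. TICRR, which brings CDC45 to the origin, was at 4.59 and 4.87 FPKM.

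CDC45 and the GINS genes, which complete the active helicase, also differed little. CDC45 was at 18.2 and 17.4 FPKM, GINS1 at 16.0 and 16.8 FPKM and GINS2 at 21.3 and 21.7 FPKM. GINS3 (3.75 and 4.49 FPKM) and GINS4 (4.24 and 5.14 FPKM) were several-fold lower than the other subunits of their 4-part complex in both libraries. Their ratios of 0.836 and 0.825 had intervals of 0.382 to 1.87 and 0.468 to 1.37, which included equal levels. On the longest transcript the interval was 0.692 to 1.008 for GINS3 and 0.702 to 0.966 for GINS4, so the GINS4 reading depends on the transcript assumed. The 5 genes together had a ratio of 0.969 (0.854 to 1.10).

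PCNA, the sliding clamp (ENSG00000132646, chromosome 20, 5114953 to 5126626), was the most abundant member by far. It was at 287 FPKM in DOX(-) against 316 in DOX(+). The ratio of 0.908 had a counting interval of 0.879 to 0.939, which excluded equal levels, and it rests on 6388 and 7858 fragments on the shortest transcript. The 3 processed pseudogenes named after PCNA were listed at 0 in both. The clamp loader genes were an order of magnitude lower. RFC1, the large subunit, was at 16.4 and 17.7 FPKM, RFC2 at 16.1 and 14.96 FPKM, RFC3 at 14.8 and 17.5 FPKM, RFC4 at 5.15 and 5.196 FPKM, and RFC5 at 20.2 and 18.6 FPKM. All 5 intervals on the shortest transcript included equal levels, and the sums of 72.6 and 73.97 FPKM had a ratio of 0.982 (0.876 to 1.10). PCNA thus stood at 17.5 times RFC1 in DOX(-) and 17.8 times in DOX(+).

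Replicative polymerases showed no common direction: of 11 tested subunits 6 were above 0, 4 below and PRIM2 level. Of polymerase alpha-primase, which lays down primers, POLA1 was at 19.6 and 20.2 FPKM, POLA2 at 7.88 and 6.62 FPKM, PRIM1 at 14.4 and 13.02 FPKM and PRIM2 at 8.55 and 8.55 FPKM. Exons of 45 members overlap no other gene model on the same strand. Exons of PRIM1 overlap those of NACA on the same strand, and exons of POLA2 those of another gene model, so their values are uncertain. The same limit holds for POLD1, POLD3, POLD4, FEN1 and TIPIN. Exons of 18 members overlap a gene model on the other strand, and the strand setting is not given. For RFC4 and DBF4 that gene was listed higher than the member in both libraries. Polymerase delta, which extends the lagging strand, had its catalytic subunit POLD1 at 19.6 and 22.0 FPKM, POLD2 at 23.4 and 20.7 FPKM and POLD3 at 7.87 and 7.40 FPKM. POLD4, its smallest subunit, was at 0.345 and 0.360 FPKM, which is 3 and 4 fragments on the shortest transcript. Its ratio of 0.958 had an interval of 0.123 to 4.95, so nothing can be said of its direction. In polymerase epsilon, of the leading strand, POLE was at 8.41 and 8.16 FPKM and POLE2 at 5.51 and 5.75 FPKM.

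The small polymerase epsilon subunits were far apart. POLE3, a histone-fold protein that also works in chromatin remodelling, was at 66.2 FPKM in DOX(-) against 74.9 in DOX(+), a ratio of 0.884 (0.784 to 0.995). POLE4, its histone-fold partner, was at 5.19 and 4.74 FPKM. The POLE3 message exceeded that of POLE4 12.7-fold in DOX(-) and 15.8-fold in DOX(+). The pattern of 1 abundant and 1 scarce partner recurred in RPA, the single-strand binding trimer: RPA1 stood at 27.1 and 27.7 FPKM, RPA2 at 58.8 and 58.3 FPKM, and RPA3 at 3.08 and 3.32 FPKM. None of the 3 RPA ratios had an interval that excluded equal levels, and their sums gave a ratio of 0.996 (0.902 to 1.10).

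Of the genes that join Okazaki fragments, FEN1, the flap nuclease, was at 34.1 FPKM in DOX(-) against 39.0 in DOX(+). Its ratio of 0.876 had an interval of 0.772 to 0.996. FADS2, whose annotated exons overlap those of FEN1 on the same strand, was at 28.2 and 26.9 FPKM, so the FEN1 value is uncertain. LIG1, the ligase, was at 11.6 and 12.2 FPKM, with an interval of 0.692 to 1.33.

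At the fork, CLSPN was the member with the largest difference on the lower side. Claspin, its product, links the helicase to the checkpoint kinase CHEK1 when replication stalls (ENSG00000092853, chromosome 1, 35720218 to 35769967). The gene was at 11.7 FPKM in DOX(-) against 18.1 in DOX(+), a log2 ratio of -0.58 that lay just inside the 1.5-fold line. By plain FPKM it was 1.54-fold higher in DOX(+), with a counting interval of 1.203 to 1.96. With a pseudocount of 0.1 FPKM it passed, as did 7.64% of all tested genes on the lower side. Its position among the members moved from 21 of 52 in DOX(+) to 29 in DOX(-), the 8 places named above. TIMELESS and TIPIN, which form a pair that holds the fork together, stood at 19.4 and 17.8 FPKM (TIMELESS) and 6.07 and 7.39 FPKM (TIPIN). WDHD1, which ties polymerase alpha to the helicase, was at 7.55 and 7.87 FPKM. CLSPN accordingly went from 1.013 times TIMELESS in DOX(+) to 0.605 times in DOX(-). The 4 genes summed to 44.8 and 51.2 FPKM (ratio 0.875, 0.768 to 0.997). CLSPN made up nearly all of that gap, as TIMELESS and TIPIN differed in opposite directions and WDHD1 differed little. The upper bound of 0.997 lay just under 1, and median-of-ratios and trimmed-mean scaling would take it past 1.

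**Figure D5:**
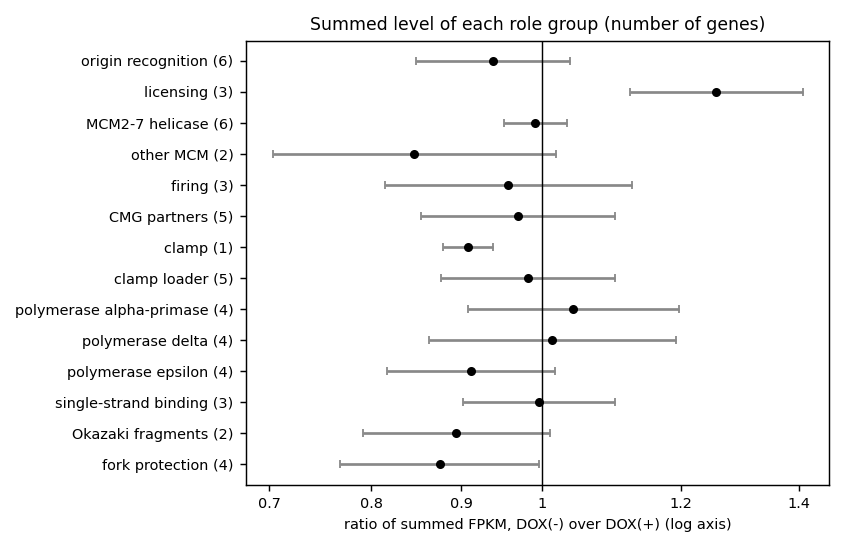
Ratio of summed FPKM, DOX(-) over DOX(+) (horizontal log axis), for the 14 role groups, with approximate counting intervals at 95%; the number of genes is in parentheses. Licensing stands to the right of 1 at 1.26, the clamp (0.908) and fork protection (0.875) stand to the left, and the other intervals include 1. CDT1 makes up most of the licensing gap, and CLSPN nearly all of that of fork protection.

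Of 3 lists of related genes outside the 52, those of regulators and of fork maintenance had medians below 0 and that of repair polymerases a median above it. Of 18 regulators of licensing and firing, 14 were below 0 (77.8%, against 53.4% of all tested genes), 2 differed by 25% or more and 0 passed 1.5-fold, with a median log2 ratio of -0.11. Among those at 2 FPKM or more, the genes of that list that differed most were RIF1, which restrains firing (4.80 and 6.82 FPKM, counting interval 0.464 to 1.03), CCNE2, a cyclin of the G1/S transition (3.96 and 5.65 FPKM, 0.418 to 1.14), and FBXO5, the inhibitor of the ubiquitin ligase that degrades geminin (10.3 and 12.9 FPKM, 0.694 to 0.919). Of 28 genes of fork maintenance and chromatin assembly, 24 were below 0 (85.7%), also with a median of -0.11, and 6 differed by 25% or more (21.4%), a share near the 22.9% of all tested genes. ATAD5, which unloads PCNA from DNA, was at least 1.5-fold lower (2.66 and 4.64 FPKM, log2 ratio -0.63, counting interval 0.453 to 0.715). The topoisomerase gene TOP1 was at 61.5 and 78.5 FPKM (0.751 to 0.816) and RNASEH2C, of ribonuclease H2, at 3.81 and 5.45 FPKM (0.444 to 1.07). Of 15 repair and translesion polymerase genes, 10 were tested, 4 were below 0, 6 above, and 0 differed by 25% or more, with a median of 0.09. POLG (5.38 and 4.43 FPKM), MAD2L2 (16.3 and 13.3 FPKM) and POLQ (4.06 and 4.93 FPKM) differed most among those at 2 FPKM or more, and their intervals included equal levels. None of these differences between lists was tested.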

How the data were processed

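The file deposited by the authors lists FPKM values, 1 column for each library. Tools named in the submitters' processing notes, without their roles, are edgeR, StringTie 1.3.4b, HISAT2 2.1.0 and CASAVA 1.8, on GRCh38. Strand setting and annotation release: not given in the sources used here. Of 58302 identifiers, 58039 were found in GENCODE release 29, which gave transcript lengths and exon overlaps. 51 of the 52 members had the same locus there.

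Fragments per library were recovered from genes with 1 annotated transcript: 99.6% of values up to 100 fragments were whole within 0.02 fragment in each library (5588 and 5976 genes). The floor of 3 fragments is 0.181 and 0.162 FPKM for 1 kb. Differences are log2(FPKM + 1), DOX(-) minus DOX(+), for genes that reach 1 FPKM in at least 1 library. Intervals of single ratios are exact conditional (Clopper-Pearson), and those of sums are normal on the log scale. Fragments are not independent molecules, so these cover counting error only. Calculations used Python 3.11.15, numpy 2.4.6, scipy 1.17.1 and pandas 2.3.3 and were tested on simulated data. Promoters are from RefSeq. Proteins were not analysed here.

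All members are named, with EIF2S3 and, in each of 3 companion lists, the 3 genes of 2 FPKM or more that differed most. APRT, DBF4P1, NACA, FADS2 and the markers MPO, CD79A and CXCR2 were named after their values were seen. Members and lists were chosen with earlier results of these data known.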

Additional observations from a re-analysis of the deposited data

How the results depend on the processing

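The number of members at least 1.5-fold higher in DOX(-) (1, CDT1) was 2 when a difference of 25% sufficed, and 0 at 2-fold or when scaled to FPKM without the mitochondrial genome. The number at least 1.5-fold lower (0) was 1 (CLSPN) with a pseudocount of 0.5, 0.1 or none, at that 25% rule, and under the mitochondrial scaling. Over all tested genes, 22.9% passed the 25% rule in either direction, and 7.64% passed on the lower side with the pseudocount of 0.1. The share was not taken for the other changed settings, so the members' counts there cannot be set against all tested genes. The setting without a pseudocount was not planned and was added after seeing the data. The members' median log2 ratio (-0.05) was below 0 in all 10 settings run, from -0.11 under the mitochondrial scaling to -0.03 under trimmed-mean scaling. All tested genes had medians of -0.08 and 0.003 under those scalings. The mitochondrial scaling also moved the ratio of summed levels to 0.944 for MCM2 to MCM7 and to 0.864 for PCNA, while 40 of 42 rescaled group sums stayed within their counting interval. Of 51 tested members, 50 stayed within their counting interval under every pseudocount and scaling run, the exception being PCNA, and no called member changed sign, though 3 to 6 members near 0 did under the rescalings. The longest transcript, an alternative added after seeing the data, raised the members whose interval excluded equal levels from 1 to 7 higher and from 5 to 16 lower. The share over all tested genes was not taken with the longest transcript. No paired analysis was possible because each condition has 1 library, and for the same reason no library could be left out. Low members such as POLD4, GINS3 and ORC4 rest on 3 to 25 fragments in DOX(-) on the shortest transcript, and depth limits what can be said of them.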
